A study of Homo sapiens with 33 samples.

Results

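The proteasome genes were read in the RNA of K562, a human erythroleukemia cell line. The members were all entries of the deposited gene table whose symbol begins with PSM, goes on with a letter from A to G and ends in a number. This gave 48 genes of the 58293 entries, and all 48 are annotated as protein-coding. The gene-level values come from 1 library, the input RNA of an EZH2 RNA immunoprecipitation (RIP-seq) from wild type cells at passage 15-25, without an antibody. The cells had been fixed with formaldehyde and the RNA sonicated, and ribosomal RNA was removed before library preparation. In the study's RIP protocol the nuclei were sonicated and the immunoprecipitation was done on nuclear lysate. The input may therefore be nuclear rather than whole-cell RNA. A further 4 libraries of wild type K562 RNA (cytoplasmic, nuclear, nuclear polyA+ and nuclear polyA-) give read counts on 900 RNA fragments bound by EZH2, the enzymatic subunit of the Polycomb repressive complex. No member of the group was edited or treated in these cells, and the RIP, Nanopore, ChIP-seq and 4C-seq samples of the series were not analysed here.

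The proteasome degrades proteins tagged with ubiquitin. Its barrel-shaped core particle is built from stacked rings, with alpha subunits on the outside and beta subunits inside, and some of the beta subunits carry the catalytic sites. A regulatory particle caps the barrel: the ATPases of its base unfold the substrate, and the lid removes the ubiquitin chain. Interferon induces catalytic subunits that replace the constitutive ones and form the immunoproteasome, whose products are presented on MHC class I molecules. Dedicated chaperones assemble the core and the base, and alternative activators can take the place of the regulatory particle.

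Values are FPKM (fragments per kilobase of transcript, scaled to the mapped fragments of the library), which are set per length and so can be compared between genes. Each is given with the lower and upper confidence bounds that cuffdiff wrote beside it, and these stand for the error since there was no replicate. The number of reads in the library is not in the table, so the depth is unknown. The identity of the cells was checked first. The 8 erythroid genes fixed as markers were read at FPKM between 12.0 (HBZ) and 218 (HBG2). Of 7 marker genes of other cell types, 5 were under an FPKM of 1. The exceptions were EPCAM, an epithelial adhesion gene, at 27.9 (25.0 to 30.7), and CD3D, a T cell gene, at 6.29 (3.85 to 8.73), whereas CD3E was at 0.150 with a lower bound of 0. The B cell gene CD79A and the monocyte gene CD14 were listed at 0. The part of other cells in the values of the proteasome genes was not tested.

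The promoters of 6 genes are shown first, since they belong to the catalytic subunit PSMB5, to the immunoproteasome subunits and to the activator genes that interferon also induces, which are the genes of the comparison of constitutive with interferon-inducible members. The sequences are from RefSeq (GRCh38.p14), 250 bases before to 50 bases after an annotated start, on the strand of the gene and 5′ to 3′. Capitals mark matches on either strand to 3 short motifs: TGACNNNGC, a core of the antioxidant response element, GAAANNGAA, a core of the interferon-stimulated response element, and ATTGG, the CCAAT box read on its other strand. The window of PSMB5 lies at chr14:23035171-23035470, minus strand, that of PSMB8 at chr6:32843998-32844297, minus strand, that of PSMB9 at chr6:32853942-32854241, plus strand and that of PSMB10 at chr16:67936801-67937100, minus strand. The window of PSME1 lies at chr14:24135944-24136243, plus strand and that of PSME2 at chr14:24146561-24146860, minus strand. For PSMB5 and PSMB8, which have 2 windows each, the one with more matches is printed.
PSMB5: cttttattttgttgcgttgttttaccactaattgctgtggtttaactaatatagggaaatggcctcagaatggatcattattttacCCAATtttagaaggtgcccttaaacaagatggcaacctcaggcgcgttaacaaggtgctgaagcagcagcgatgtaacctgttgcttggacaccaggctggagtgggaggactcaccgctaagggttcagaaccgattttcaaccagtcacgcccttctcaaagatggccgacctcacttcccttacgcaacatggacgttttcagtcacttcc
PSMB8: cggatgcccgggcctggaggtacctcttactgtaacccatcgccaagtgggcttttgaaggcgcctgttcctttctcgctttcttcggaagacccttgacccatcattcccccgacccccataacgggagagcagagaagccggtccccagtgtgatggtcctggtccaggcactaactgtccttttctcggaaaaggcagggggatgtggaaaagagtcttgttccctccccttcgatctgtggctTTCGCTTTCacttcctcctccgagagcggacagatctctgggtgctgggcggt
PSMB9: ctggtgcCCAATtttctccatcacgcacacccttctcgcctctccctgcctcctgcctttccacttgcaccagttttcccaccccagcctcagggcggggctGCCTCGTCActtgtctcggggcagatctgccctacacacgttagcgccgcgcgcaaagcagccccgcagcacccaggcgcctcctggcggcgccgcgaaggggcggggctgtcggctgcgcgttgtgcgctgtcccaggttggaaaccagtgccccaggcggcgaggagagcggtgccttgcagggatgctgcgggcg
PSMB10: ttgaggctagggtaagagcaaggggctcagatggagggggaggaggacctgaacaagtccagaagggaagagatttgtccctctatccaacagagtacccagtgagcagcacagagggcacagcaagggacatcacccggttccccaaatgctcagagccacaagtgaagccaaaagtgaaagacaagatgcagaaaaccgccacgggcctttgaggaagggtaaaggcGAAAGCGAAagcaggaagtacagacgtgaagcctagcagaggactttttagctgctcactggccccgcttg
PSME1: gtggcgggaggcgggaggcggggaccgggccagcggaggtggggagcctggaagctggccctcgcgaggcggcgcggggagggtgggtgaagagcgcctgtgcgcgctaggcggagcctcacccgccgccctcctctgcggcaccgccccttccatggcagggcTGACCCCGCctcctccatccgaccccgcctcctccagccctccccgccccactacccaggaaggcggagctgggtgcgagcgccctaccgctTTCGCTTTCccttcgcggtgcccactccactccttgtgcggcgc
PSME2: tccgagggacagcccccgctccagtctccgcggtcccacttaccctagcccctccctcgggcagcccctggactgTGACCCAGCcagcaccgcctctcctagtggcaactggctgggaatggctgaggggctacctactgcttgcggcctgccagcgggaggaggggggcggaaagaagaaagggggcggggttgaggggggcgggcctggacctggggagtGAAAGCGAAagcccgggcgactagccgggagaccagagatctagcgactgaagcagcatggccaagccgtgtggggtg
In the window of PSMB5 the capitals mark only a CCAAT box, which begins 164 bases before the start. PSMB8 and PSMB10 each hold 1 match to GAAANNGAA, beginning 3 and 21 bases before the start, and PSME1 and PSME2 each hold 1 match to it and 1 to TGACNNNGC. PSMB9 holds 1 match to TGACNNNGC and 1 CCAAT box and none to GAAANNGAA.

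Transcripts of nearly the whole proteasome were read in K562 input RNA. An FPKM of 1 or more was found for 44 of the 48 members (91.7%). The share was 21.8% over all 58293 entries and 49.2% over the 19757 annotated protein-coding genes. The same 44 members were above the median of the protein-coding genes, 0.902, and had a lower bound above 0. Of all members, 34 lay among the highest 10% of protein-coding genes, which begin at an FPKM of 19.4. The 4 members under an FPKM of 1 were the immunoproteasome subunits PSMB8 and PSMB9 and the tissue-restricted subunits PSMA8 and PSMB11. The half-width of the bounds had a median of 9.66% of the FPKM over the 44 genes and reached 45.6% for PSMB10.

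**Figure D1:**
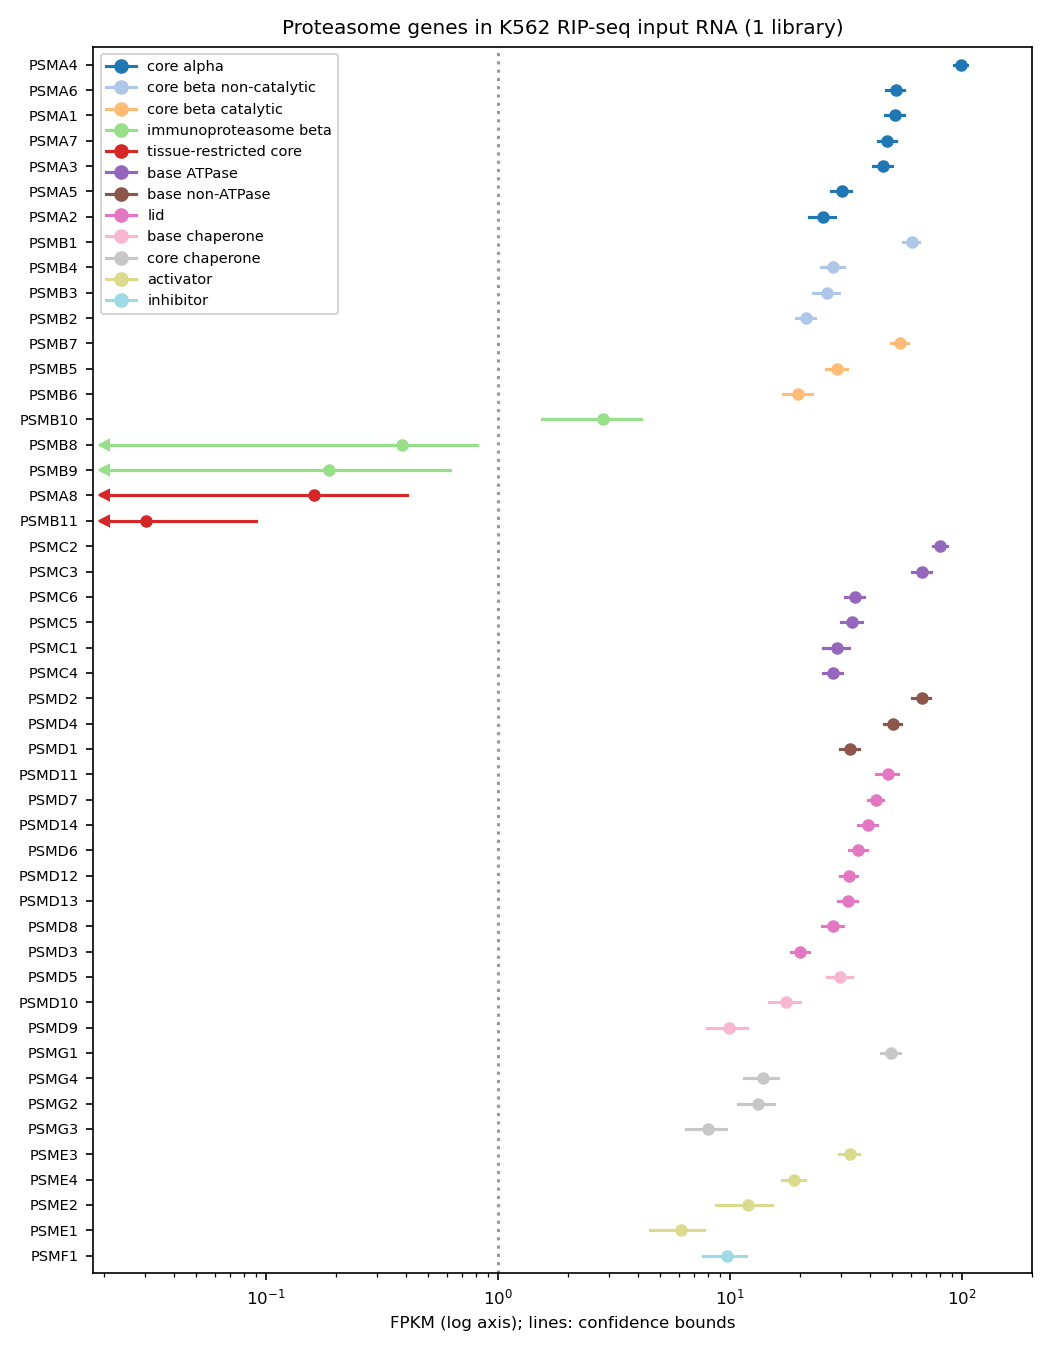
FPKM of the 48 proteasome genes in the 1 library of input RNA (points, log axis) with the confidence bounds (lines), ordered by role and by FPKM within a role. Arrows mark a lower bound of 0, and the dotted line marks an FPKM of 1: PSMB8, PSMB9, PSMA8 and PSMB11 lie to its left, whereas PSMA4 has the highest value at 98.5.

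The 7 alpha subunits, which form the outer rings of the core and gate its entrance, had a median of 47.6 FPKM. The highest was PSMA4, at 98.5 (92.4 to 105), and its bounds lay above those of every other member. PSMA6 was read at 51.6 (47.2 to 56.1), PSMA1 at 51.4 (46.5 to 56.3), PSMA7 at 47.6 (43.4 to 51.7) and PSMA3 at 45.4 (41.2 to 49.6), and the bounds of these 4 genes overlapped. PSMA5 at 30.3 (27.3 to 33.2) and PSMA2 at 25.0 (21.9 to 28.2) were the lowest of the ring, with PSMA4 3.94 times as high as PSMA2. In the assembled ring each alpha subunit occupies its own position. PSMA8, the testis counterpart of PSMA7, was at 0.161 (0 to 0.407). The lower bound of PSMA7 over the upper bound of PSMA8 gave a ratio of 107, and none of the 50-base stretches of the PSMA7 transcript occurred in the PSMA8 transcript.

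Among the beta subunits without catalytic activity, PSMB1 stood highest, at 60.5 (55.7 to 65.4). PSMB4, at 27.8 (24.6 to 30.9), PSMB3, at 26.1 (22.7 to 29.5), and PSMB2, at 21.3 (19.3 to 23.3), were lower, and the bounds of PSMB1 overlapped none of theirs. The middle value of these genes was 26.9. The constitutive catalytic genes were PSMB7 (trypsin-like activity) at 54.0 (49.3 to 58.7), PSMB5 (chymotrypsin-like activity) at 28.9 (25.8 to 32.0) and PSMB6 (caspase-like activity) at 19.6 (16.9 to 22.4). Their bounds did not overlap, although the 3 proteins occur in equal number in a core particle. PSMB6 was the lowest of the 31 standard subunits of the core, base and lid. PSMB11, the subunit of the thymus proteasome in the position of PSMB5, had an FPKM of 0.0302 (0 to 0.0907), the lowest of all members.

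At each catalytic position the constitutive gene was read far above its immunoproteasome counterpart. PSMB8, which replaces PSMB5, had an FPKM of 0.384 (0 to 0.811). The ratio of PSMB5 to PSMB8 was 75.4, and the lower bound of PSMB5 over the upper bound of PSMB8 still gave 31.9. PSMB9, which replaces PSMB6, was at 0.187 (0 to 0.620). PSMB6 was 105 times as high, or 27.2 times from its lower bound over the upper bound of PSMB9. PSMB10, which replaces PSMB7, was the one immunoproteasome subunit with a lower bound above 0, at 2.84 (1.54 to 4.13). The ratio of PSMB7 to PSMB10 was 19.0, and from the bounds it lay between 11.9 and 38.0. For the other pairs the lower bound of 0 leaves no upper limit to the ratio. Summed over the catalytic positions, the constitutive genes came to 103 and the immunoproteasome genes to 3.41, a share of 3.21%, and setting opposite bounds against each other moved this share to between 1.34% and 5.70%. PSMB10 made up 83.3% of the immunoproteasome sum.

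**Figure D2:**
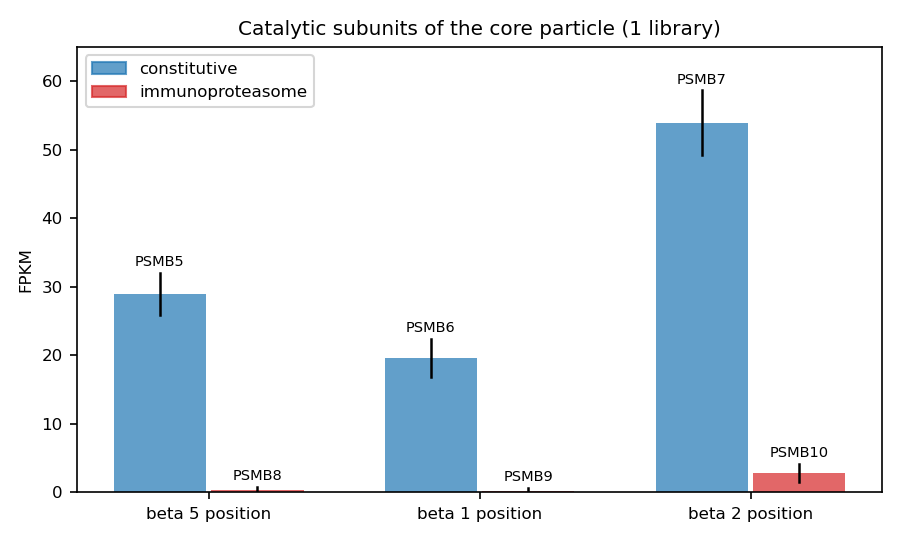
FPKM of the constitutive (blue) and immunoproteasome (red) gene at each catalytic position of the core, with black lines for the confidence bounds of the 1 library. The constitutive gene is higher at every position, with PSMB7 at 54.0 against PSMB10 at 2.84 as the pair with the smallest ratio.

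PSMB8 and PSMB9 are neighbours within the MHC region of chromosome 6, on opposite strands, and their annotated spans share 568 bases. TAP1, a peptide transporter gene of the same region that overlaps PSMB9, was at 0.606 (0.292 to 0.920), and the antisense RNA PSMB8-AS1 was listed at practically 0 with an upper bound of 0.333. TAP2, the partner of TAP1, was at 9.81 (6.29 to 13.3), while B2M, the light chain of MHC class I, was at 98.2 (90.1 to 106), with bounds that overlapped those of PSMA4. Of the interferon response genes on the list, NLRC5, a transactivator of MHC class I genes, was at 0.455 with a lower bound of 0. IRF1, a transcription factor of immunoproteasome genes, was at 2.02 (0.831 to 3.20).

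The 6 ATPases of the base form a ring that unfolds the substrate and threads it into the core. PSMC2 was the second highest member at 80.6 (75.0 to 86.2), and PSMC3, at 67.0 (60.9 to 73.1), was the third. The other ATPases were within a narrow range: PSMC6 was at 34.5, PSMC5 at 33.4, PSMC1 at 28.8 and PSMC4 at 27.8 (25.2 to 30.3). The bounds of PSMC2 lay above those of the other 5. Of the base subunits that are not ATPases, PSMD2, a scaffold, was at 66.8 (61.1 to 72.6), PSMD4, a ubiquitin receptor, at 50.2 and PSMD1, the second scaffold, at 32.8 (29.6 to 36.0). PSMD2 was 2.04 times as high as PSMD1, and their bounds did not overlap.

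The lid comprised 8 genes with a median of 34.1 FPKM and the smallest spread of the lists with 3 or more genes, with a standard deviation of 0.38 on the log2(FPKM + 1) scale across genes. PSMD11 was the highest at 47.8 (42.4 to 53.1). PSMD7 was at 42.4, and PSMD14, the deubiquitinase that cuts the ubiquitin chain from the substrate, at 39.3 (35.6 to 43.1). PSMD6, PSMD12, PSMD13 and PSMD8, which help to hold the lid together, followed at 35.6, 32.5, 32.2 and 27.8. PSMD3 was the lowest at 20.1 (18.2 to 21.9), so the highest lid gene was 2.38 times the lowest. SEM1, a small lid subunit without a PSM symbol, was at 57.5 (49.6 to 65.5).

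The 31 standard subunits together spanned 19.6 to 98.5, a ratio of 5.02, and all lay among the highest 10% of protein-coding genes. Of these, 29 (93.5%) were within 2-fold of their median of 34.5, and the exceptions, PSMA4 and PSMC2, lay above. Among the protein-coding genes with an FPKM of at least 1, 44.4% were within 2-fold of theirs, 7.49. The standard deviation on the log2(FPKM + 1) scale was 0.57 for the standard subunits and 1.42 for those protein-coding genes. That background holds genes of every level from an FPKM of 1 upward. Over all protein-coding genes the 90th percentile was 19.4 and the 98th 60.7, so many genes at the level of the subunits also lie within 2-fold of 34.5. A background matched for level was not computed, so the smaller spread is not shown to be particular to the proteasome. The standard core had a median of 37.8 and the base and lid one of 34.5, so the particles differed little in the middle gene. Of 465 pairs of standard subunits, 348 (74.8%) had bounds that did not overlap. The share among pairs of other genes was not computed, so this count is not particular to the proteasome. In the order of all 48 members, the bounds of neighbours overlapped in 43 of 47 steps. Neighbours in such an order are the closest in value, and the same share for other genes was not computed. The steps without overlap were PSMA4 over PSMC2, PSMC2 over PSMC3, PSME1 over PSMB10 and PSMB10 over PSMB8.

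**Figure D3:**
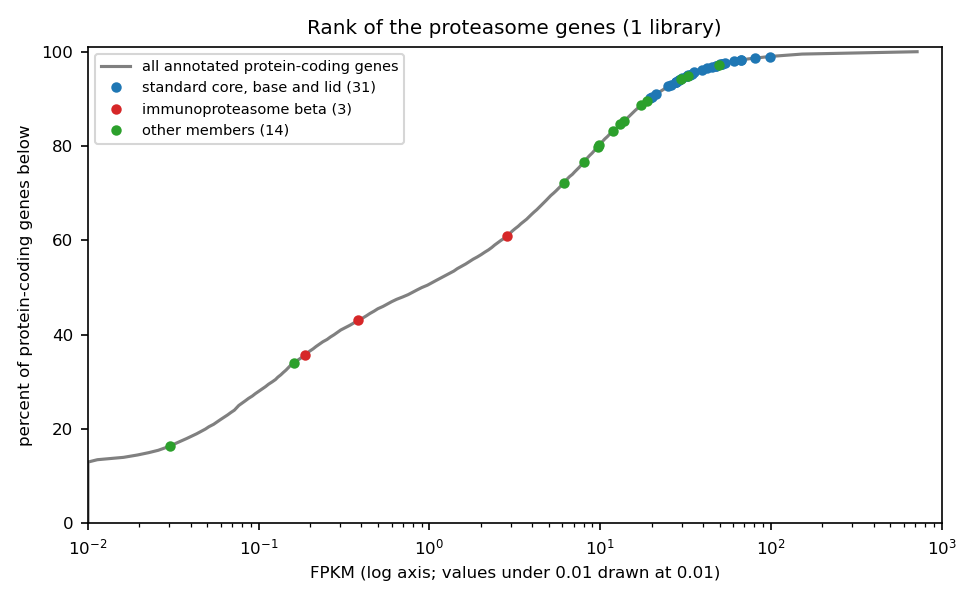
Share of annotated protein-coding genes with a lower FPKM (vertical axis, percent) against FPKM (log axis) in the 1 library; the grey line is all 19757 protein-coding genes and points are the 48 members. The 31 standard subunits sit above 90%, and the immunoproteasome subunits lie between 35.7% (PSMB9) and 60.9% (PSMB10).

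Of the 7 assembly chaperones, PSMG1 and PSMD5 lay within the range of the standard subunits and the others below it. PSMG1 and PSMG2 act as a dimer in building the alpha ring, and so do PSMG3 and PSMG4. PSMG1 was at 49.4 (44.9 to 53.9) and PSMG2 at 13.1 (10.8 to 15.4), a ratio of 3.76 that lay between 2.91 and 4.97 from the bounds. PSMG4 was at 13.8 (11.5 to 16.1) and PSMG3 at 7.99 (6.43 to 9.56), a ratio of 1.73 (1.21 to 2.5). Of the chaperones of the base, PSMD5 was at 29.8 (26.1 to 33.5), PSMD10, also known as gankyrin, at 17.3 (14.7 to 19.97) and PSMD9 at 9.89 (7.91 to 11.9). POMP, a core chaperone outside the PSM symbols, was at 14.2 (12.4 to 16.0). Of the 17 members outside the standard subunits, only PSMG1, PSMD5 and PSME3 were above the FPKM of the lowest standard subunit, PSMB6.

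The activators bind the ends of the core in place of the regulatory particle. PSME3 (PA28 gamma, the nuclear form) was the highest, at 32.7 (29.5 to 35.9), and PSME4 (PA200) was at 18.8 (16.7 to 21.0). PSME2 and PSME1 (PA28 beta and alpha), which form a joint ring in the cytoplasm and are induced by interferon, were at 11.9 (8.68 to 15.2) and 6.13 (4.51 to 7.74). PSME3 was 5.34 times as high as PSME1 (3.82 to 7.96 from the bounds) and 2.74 times as high as PSME2 (1.94 to 4.14). PSMF1 (PI31), an inhibitor of the core in the test tube, was at 9.67 (7.64 to 11.7). The interferon-inducible members PSMB8, PSMB9, PSMB10, PSME1 and PSME2, a grouping chosen after their values were seen, had FPKM from 0.187 to 11.9 and a median of 2.84, against 29.4 for all 48 members.

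The list of other pathway genes held 31, of which 29 were at an FPKM of 1 or more, and the median of the list was 22.7. Over all annotated protein-coding genes the share at an FPKM of 1 or more was 49.2%. The highest was RPS27A, which encodes ubiquitin fused to a ribosomal protein, at 161 (152 to 171). Among bound enzymes and receptors, the deubiquitinase UCHL5 was at 76.6 (70.9 to 82.4) and ADRM1, the receptor that holds it, at 10.4 (8.94 to 11.9). Of the genes that control proteasome transcription, NFE2L1, the transcription factor that raises proteasome genes when proteasomes are inhibited, was the highest at 31.9 (26.9 to 36.8), and DDI2, the protease that activates it, the lowest at 14.7 (12.8 to 16.6). The assembly factors ranged from 7.48 for PAAF1, a base chaperone, to 25.1 for ECPAS, a proteasome scaffold listed as KIAA0368. The shuttle factors, which carry ubiquitinated proteins to the proteasome, ranged from 2.29 for UBQLN2 to 22.7 for RAD23B. In the segregase that extracts substrates, UFD1 was at 43.0 and NPLOC4 at 23.1.

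Some members share sequence or position with other genes. Of the 48, 29 shared part of their span with another entry, and 15 overlapped a gene on the opposite strand with an FPKM of at least 1. The same shares over all protein-coding genes were not computed, so these counts only mark where reads may be mixed. PSMD5-AS1 was at 29.2 (25.5 to 33.0) beside 29.8 for PSMD5, and their spans share 18157 bases. PSMA3-AS1 was at 18.3 (15.5 to 21.0) beside 45.4 for PSMA3. The library kit marks strand, but whether the FPKM were computed with it is not given in the sources used here, so reads of these partners may not be told apart. DNAJC2, at 34.6, shared 620 bases with PSMC2. On the same strand, RP11-111K18.1, at 3.15 (2.45 to 3.85), shared 15318 bases with PSMA2. Also on the same strand, CTC-479C5.12, at 0.956 (0.322 to 1.59), shared 1516 bases with PSMB10. The table also holds 32 entries named as pseudogenes of 12 members. Only PSMD10P1 reached an FPKM of 1, at 5.28 (3.74 to 6.81), and 0.493% of the 50-base stretches of the PSMD10 transcript occurred in it. PSMC1 has 13 of the pseudogenes, the highest of them PSMC1P1 at 0.555 (0.220 to 0.890). PSMC1P1 held 28.1% of the 50-base stretches of PSMC1. PSMA6P1 held 21.6% of those of PSMA6, and PSME2P2 held 13.3% of those of PSME2. Alignments of low mapping quality had been removed, so some reads of PSMC1, PSMA6 and PSME2 may be missing from their FPKM. The shared stretches do not give the size of such a loss, which was not tested.

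The members lie on 17 chromosomes. Chromosome 14 holds 8 of them (16.7% of members, against 3.13% of protein-coding genes): PSMB5, PSMB11, PSME1, PSME2, PSMA6, PSMC6, PSMA3 and PSMC1. Chromosome 17 holds 7 (14.6% against 5.98%): PSMB3, PSMB6, PSMC5, PSMD11, PSMD12, PSMD3 and PSME3. PSMB5 and PSMB11 are separated by 6936 bases on chromosome 14 and were read at 28.9 and 0.0302. PSME1 and PSME2 are 4394 bases apart on opposite strands of the same chromosome, whereas PSMB8 and PSMB9 overlap, so the pairs of interferon-inducible genes are close neighbours.

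RefSeq promoters were given for 42 of the 48 members. PSMA7, PSMB1, PSMB6, PSMB7, PSMD4 and PSMG3 had no entry. TGACNNNGC occurred in a window of 15 of the 42 (35.7%), against 16.1% of the 27305 genes with a promoter. The 15 were PSMA4, PSMB3, PSMB9, PSMC4, PSMC5, PSMD1, PSMD3, PSMD5, PSMD9, PSMD12, PSME1, PSME2, PSME4, PSMG1 and PSMG2. GAAANNGAA occurred in 8 (19.0%), against 9.86% of all genes. These were PSMB8, PSMB10, PSME1 and PSME2, all interferon-inducible, and PSMA4, PSMB4, PSMC2 and PSMG4. Among the 5 interferon-inducible members 4 held it, and 4 of the other 37 with a promoter did. The FPKM of those holding it ranged from 0.384 for PSMB8 to 98.5 for PSMA4. ATTGG occurred in 20 (47.6%), against 39.7% of all genes. A match is a run of letters and was not tested as a binding site.

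Of the 900 EZH2 RIP-seq fragments with read counts, 3 lay in a member, and 1 of the members held them (2.08%, against 1.22% of protein-coding genes that held any). The 900 are a part of the fragments that the study called. Fragments outside this list were not analysed here, so a member without a listed fragment is not shown to lack one. All 3 lay in PSMA1 on chromosome 11 of GRCh38, and none touched an annotated exon of it. PSMA1 is read on the minus strand from more than 1 start: its usual isoform begins at 14520386 and a long isoform 123231 bases further upstream, at 14643617. The fragments lie between these starts, inside the introns of the long isoform. The fragment nearest to the long start, at chr11:14635606-14638263, begins 5354 bases from it in the first intron and had 76 nuclear, 4 cytoplasmic, 67 polyA- and 28 polyA+ reads. The next, at chr11:14614340-14616170, also in the first intron, had 34 nuclear, 1 cytoplasmic, 40 polyA- and 5 polyA+ reads. The third, at chr11:14596151-14599359 in the second intron, had 137 nuclear, 126 cytoplasmic, 134 polyA- and 495 polyA+ reads. It stood apart from the others in having almost as many cytoplasmic as nuclear reads and more polyA+ than polyA- reads.

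The counts are unscaled, so a ratio also holds the ratio of library sizes, which are not in the files, and the intervals cover counting error only. The nuclear to cytoplasmic ratio was 19.0 for the first fragment (exact Clopper-Pearson 95% interval 7.12 to 71.5), 34.0 for the second (5.70 to 1382) and 1.09 for the third (0.847 to 1.40). All 3 had more nuclear than cytoplasmic reads, as had 96.2% of the 900 listed fragments. The polyA- to polyA+ ratio was 2.39 (1.52 to 3.86), 8.0 (3.16 to 25.97) and 0.271 (0.222 to 0.328), and 83.4% of all listed fragments had more polyA- than polyA+ reads. The third fragment aligned over at least 50% of its length to annotated transcripts of 27 genes, with up to 92.9% identical bases, whereas the first and second aligned to none. The part of reads from such copies in its counts was not tested. These fragments were counted in other libraries than the FPKM of PSMA1, and they say nothing about its spliced mRNA.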

How the data were processed

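Per the labels and the study's methods, reads of the RIP-seq input library were trimmed with Trim Galore and aligned with STAR to GRCh38 with a GENCODE annotation. Duplicates and alignments of low mapping quality were removed, and the authors computed FPKM per gene with cuffdiff. The deposited FPKM and their confidence bounds were used as they stand. The level of the bounds is not given in the sources used here. Loci in the table count starts from 0, and 1 was added. The deposited read counts of the 4 fraction libraries on 900 fragments were used unscaled.

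Python scripts (numpy 2.4.6, pandas 2.3.3, scipy 1.17.1, matplotlib 3.10.9) ranked the members and compared bounds, and were tested on simulated data. Gene types, transcripts and introns came from GENCODE 44, and promoters from RefSeq (GRCh38.p14). A fragment was placed in a gene with at least 50% of its length. The fragments were aligned to transcripts with minimap2 2.31. With 1 library per kind no test was possible and no p-value is given. Members, lists and motifs were chosen with earlier results of these data known. Every member was named, with bounds for the catalytic pairs and for the highest and lowest gene of each list. Of the pathway lists, the highest and lowest gene were named, and the antigen processing genes in full. Some genes of these lists are not reported here.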

Additional observations from a re-analysis of the deposited data

How the results depend on the processing

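Of 69 recomputed values, 60 stayed within the confidence bounds or, for counts and shares, within 1.5 times the value reported, and 9 moved. The 60 include the medians of the bounds themselves, which could not fall outside them. They also include lists limited to an FPKM of at least 1 in which every gene already passed. The count of 60 is therefore no measure of how stable the results are. The standard deviation over the standard subunits was 0.57 and became 0.59 with a pseudocount of 0.1. The geometric mean on the log2(FPKM + 1) scale gave 31.1 for the non-catalytic beta subunits, 41.4 for the base ATPases, 16.5 for the core chaperones and 0.847 for the immunoproteasome subunits, whose median over members at an FPKM of at least 1 was 2.84, from PSMB10 alone. On the log2 scale the ratio of PSMB5 to PSMB8 was 6.24 and that of PSMB6 to PSMB9 was 6.72. After adding 1 to each FPKM these fell to 4.43 and 4.12, since a pseudocount pulls values under 1 together. Within the 150 bases before the start, 10 of the 42 members held TGACNNNGC (23.8%, against 8.94% of all genes with a promoter). In the same window 4 held GAAANNGAA (9.52% against 4.96%) and 12 held ATTGG (28.6% against 27.8%). The number of members at or above the limit was 47 at an FPKM of 0.1 and 43 at 5. Further backgrounds for the motifs were added after seeing the data. Among promoters of genes with an FPKM of at least 1, 19.7% held TGACNNNGC, 8.55% held GAAANNGAA and 44.5% held ATTGG. Among those of RefSeq protein-coding genes the shares were 17.9%, 9.22% and 42.1%. No paired analysis was possible because the gene values come from 1 library and from no test. The bounds are those of a single library, so they hold no spread between cultures, and the depth is unknown. The input RNA came after fixation and sonication and may be nuclear. Whether it holds the same share of each member as total RNA of living cells was not tested.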

Other observations

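Across the 48 members, FPKM and the length of the canonical transcript, which ran from 762 to 8154 bases, had a Spearman rho of 0.10, and FPKM and the number of exons one of 0.44. These are descriptions over genes of 1 library, which share its depth and its length correction. PSMF1, with the longest canonical transcript, was at an FPKM of 9.67, and PSMB3, with the shortest, at 26.1.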
